A study of Rattus norvegicus with 6 samples.

Results

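The pancreatic carboxypeptidases are described here as 3 genes, Cpa1, Cpb1 and Cpa4, found by gene name among the 34001 genes of the deposited table. All 3 had a mean of at least 1 TPM over the 6 libraries, as did 11477 genes in all. Cpa1 and Cpb1 were taken as abundant enzymes of the family, and Cpa4 was selected on its TPM, which in the TP group was below that of the other groups. That difference therefore chose Cpa4 and is given as a description, with no test. RNA was sequenced from pancreatic tissue of 6 Sprague-Dawley rats, an outbred strain, with 2 rats in each of 3 groups and tissue taken 24 h after the operation. In the TP+hucMSC-Exs group the gland was crushed with an impactor at 3 cm2 and 10 kg, and vesicles from human umbilical cord mesenchymal stem cells (exosomes) were given into the tail vein at 10 μg per 100 g. In the TP group (traumatic pancreatitis) the same crush was followed by about 1 ml of saline. In the Control group the abdomen was opened, the gland was handled with swabs and about 1 ml of saline was given. No age is given for the rats, and all 3 groups underwent laparotomy. Values are TPM, transcripts per 1000000 after scaling by gene length, so sequencing depth was unknown and no counting error could be given.

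Carboxypeptidases remove single amino acids from the carboxyl end of proteins and peptides. Acinar cells of the pancreas make the digestive forms as inactive proenzymes, store them in zymogen granules, and release them into the gut, where trypsin activates them. The A-type enzymes prefer hydrophobic or aromatic residues, and the B-type enzyme prefers the basic residues that trypsin leaves at the end of a peptide. Cpa1 encodes carboxypeptidase A1 and Cpb1 encodes carboxypeptidase B1, both major proteins of pancreatic juice. Cpa4 encodes carboxypeptidase A4, an A-type enzyme that in humans was found in cultured cancer cells and is not counted among the main digestive enzymes.

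In RefSeq, Cpa4 and Cpa1 lie in the same cluster on rat chromosome 4, where Cpa4, Cpa5 and Cpa1 follow in that order. The nearest protein-coding gene on the other side of Cpa1 is Cep41. Cpb1 lies on chromosome 2, between Cpa3, the carboxypeptidase of mast cells, and the angiotensin receptor gene Agtr1b. The 250 bases before the RefSeq start of each member, in build GRCr8, are shown because Cpa1 and Cpb1 had similar profiles across the libraries and Cpa4 had another. Cpa1 is chr4:60224551-60224800 on the plus strand, Cpb1 is chr2:104714663-104714912 on the minus strand, and Cpa4 is chr4:60155425-60155674 on the plus strand. Capitals mark matches to 4 motifs: CACCTG, the E-box of the acinar factor PTF1, TTCCCA, the RBPJ half-site of that factor, and AAGGTCA, the site of NR5A2, each on either strand, and TATAAA, the TATA box, on the forward strand only.
Cpa1: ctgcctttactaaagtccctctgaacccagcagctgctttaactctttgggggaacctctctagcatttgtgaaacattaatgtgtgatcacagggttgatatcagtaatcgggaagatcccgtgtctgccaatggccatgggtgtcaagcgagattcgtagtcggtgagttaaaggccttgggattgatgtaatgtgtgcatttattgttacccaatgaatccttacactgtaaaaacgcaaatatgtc
Cpb1: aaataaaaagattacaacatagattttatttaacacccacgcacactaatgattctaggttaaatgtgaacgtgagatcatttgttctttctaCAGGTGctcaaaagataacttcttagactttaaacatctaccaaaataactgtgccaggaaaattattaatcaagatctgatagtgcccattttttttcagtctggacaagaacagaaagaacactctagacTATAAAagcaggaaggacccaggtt
Cpa4: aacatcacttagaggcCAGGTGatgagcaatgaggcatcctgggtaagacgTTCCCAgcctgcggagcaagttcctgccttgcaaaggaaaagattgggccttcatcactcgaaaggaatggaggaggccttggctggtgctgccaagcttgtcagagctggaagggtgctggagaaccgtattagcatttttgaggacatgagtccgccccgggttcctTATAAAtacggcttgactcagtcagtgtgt
The Cpa1 window held none of these letters. The Cpb1 window held CAGGTG, the reverse complement of the E-box, at positions -157 to -152 and TATAAA at -25 to -20, counted back from the start. The Cpa4 window held CAGGTG at -234 to -229, TTCCCA at -199 to -194 and TATAAA at -30 to -25. None of these matches overlapped another. Over 33469 RefSeq promoters of that length, 15.9% held the E-box, 22.1% the half-site, 3.99% the NR5A2 site and 8.06% the TATA box, and 3.60% held both the E-box and the half-site. Of 23 promoters of acinar genes, 47.8% held the E-box, 65.2% the half-site, 13.0% the NR5A2 site and 47.8% the TATA box. Both the E-box and the half-site were held by 34.8% of those 23. A match is a description of the letters only.

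The labelled tissue was checked against marker genes. All 9 acinar markers, among them Cpa1 itself, were above 0 in every library, and together they took 365220 to 397370 TPM in the TP+hucMSC-Exs libraries, against 116120 to 437640 TPM in TP and 461590 to 486840 TPM in the Control libraries. TP replicate 2 stood apart. Its 8 fat-cell markers summed to 6844 TPM, against 25.3 to 53.8 TPM in the other 5 libraries, in which up to 3 of the 8 were at 0. Its 8 macrophage markers summed to 4659 TPM and its 9 fibroblast and stellate cell markers to 5937 TPM, against at most 759 and 268 TPM elsewhere. The other lists ran as follows. Duct cell markers summed to 783 and 977 TPM in the TP+hucMSC-Exs libraries, 137 and 82.9 TPM in TP, and 88.8 and 92.5 TPM in Control. In TP replicate 2 neutrophil markers summed to 539.6 TPM, lymphocyte markers to 153 TPM, endothelial markers to 107 TPM and skeletal muscle markers to 6.57 TPM, each the highest of the 6 libraries. Islet markers ranged from 301 TPM in TP replicate 2 to 2939 TPM in TP+hucMSC-Exs replicate 1, and liver markers from 6.07 to 35.2 TPM. In such bulk tissue, fewer acinar cells and less of a transcript per acinar cell cannot be told apart, and the part of these other cells in the values that follow was not tested.

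Transcripts of Cpa1 and Cpb1 were among the most abundant of the gland in all 6 libraries. Cpa1 (ENSRNOG00000010725) stood at 18777 and 16381 TPM in TP+hucMSC-Exs pancreases, at 29103 and 8402 TPM in TP pancreases and at 26082 and 24732 TPM in Control pancreases. The TP libraries lay on either side of all others, with replicate 1 the highest and replicate 2 the lowest of the 6. By rank, Cpa1 was the 9th to 13th most abundant transcript in every library. Group means were 17579 ± 1694 TPM in TP+hucMSC-Exs pancreases, 18753 ± 14638 TPM in TP pancreases and 25407 ± 954 TPM in Control pancreases (SD, n = 2 each). The TP mean did not differ from either neighbour beyond its own spread.

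Cpb1 (ENSRNOG00000030904) stood at 24213 and 22725 TPM in TP+hucMSC-Exs pancreases, at 29435 and 9530.45 TPM in TP pancreases and at 32095 and 34631 TPM in Control pancreases. Both libraries of each injured group were below both Control libraries, with TP replicate 1 close to them. In TP against Control, 1.09% of all genes tested were lower with no overlap, and 23.1% were higher. The order was not particular to Cpb1. Other listed acinar secretory genes together took 64.16% and 58.85% of all TPM in TP+hucMSC-Exs, 75.78% and 20.09% in TP, and 81.71% and 77.73% in Control. Among them, Prss1 and Pnlip had the same order, while Ctrb1 and Pnliprp1 did not. Cpb1 was the 7th to 9th most abundant transcript in every library. Group means were 23469 ± 1052 TPM in TP+hucMSC-Exs pancreases, 19483 ± 14075 TPM in TP pancreases and 33363 ± 1794 TPM in Control pancreases (SD, n = 2 each). Together the 3 members took 4.30% and 3.91% of all TPM in the TP+hucMSC-Exs libraries, 5.85% and 1.79% in TP and 5.82% and 5.94% in Control.

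**Figure D1:**
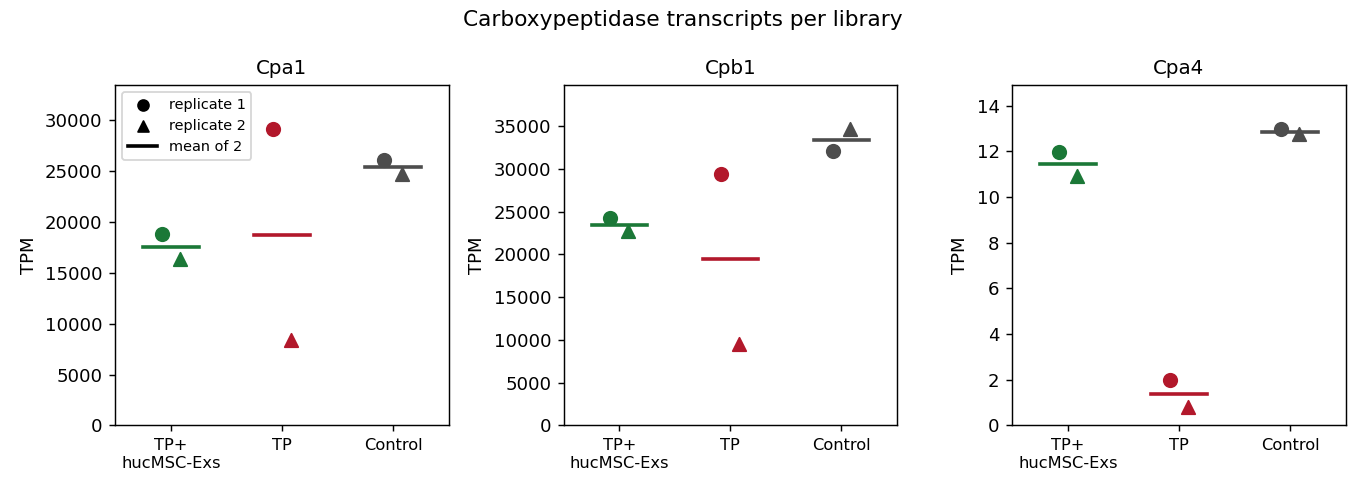
TPM of Cpa1, Cpb1 and Cpa4 (y axes, each from 0) in the 6 libraries, by group (x axis). Circles are replicate 1, triangles replicate 2 and lines the mean of 2. Cpa1 and Cpb1 of the TP group are spread from 8402 to 29103 TPM and from 9530.45 to 29435 TPM, while the TP values of Cpa4 lie at 1.98 and 0.79 TPM, below the other 4.

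Neither abundant enzyme passed the test in any of the 3 comparisons, in a limma model of log2(TPM + 0.5) over all 6 libraries with Benjamini-Hochberg adjustment over 11477 genes. In TP against Control, where 0.0523% of all genes were called, the log2 fold change was -0.70 ± 0.60 for Cpa1 and -0.99 ± 0.58 for Cpb1 (SE; limma adjusted p = 0.555 for both, unadjusted p = 0.242 and 0.0844). The 95% intervals ran from -1.87 to 0.47 for Cpa1 and from -2.12 to 0.13 for Cpb1. In TP+hucMSC-Exs against TP, where 0.0697% were called, the values were 0.17 ± 0.60 for Cpa1 and 0.49 ± 0.58 for Cpb1 (SE; limma adjusted p = 1.0 for both), with intervals of -1.01 to 1.34 and -0.64 to 1.61. In TP+hucMSC-Exs against Control, where 0.209% were called, they were -0.53 ± 0.60 for Cpa1 and -0.51 ± 0.58 for Cpb1 (SE; limma adjusted p = 0.800 for both), with intervals of -1.71 to 0.64 and -1.64 to 0.62. The intervals leave room for a change of more than 1 log2 unit in at least one direction in each comparison. Their width rests on a variance shared over the 3 groups, to which the unlike TP libraries add, also in TP+hucMSC-Exs against Control. With TP replicate 1 or 2 left out, that last change stayed at -0.53 for Cpa1 (SE 0.185 and 0.199). It stayed at -0.51 for Cpb1 (SE 0.18 and 0.197). Despite the smaller errors, neither gene was called in these fits. The median gene shifted by 1.495, -0.38 and 1.09 log2 units in TP against Control, TP+hucMSC-Exs against TP and TP+hucMSC-Exs against Control. By group means, Cpa1 and Cpb1 thus lay below the median gene against Control in both injured groups. The TP libraries were unlike here, with the median gene at 0.00135 from the Control mean in replicate 1 and at 3.0 in replicate 2. With TP replicate 1 alone, Cpa1 was at 0.20 against Control, above that library's median gene, and Cpb1 at -0.18, below it.

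A single library, or the scaling, moved these values. With TPM rescaled without acinar secretory genes, the log2 fold change was -2.24 for Cpa1 and -2.54 for Cpb1 in TP against Control, and -1.95 for Cpa1 and -1.92 for Cpb1 in TP+hucMSC-Exs against Control. With median-of-ratios scaling these 4 values were -2.43, -2.73, -1.98 and -1.96, and neither gene was called in any of them. Without TP replicate 1, the change in TP against Control was -1.60 for Cpa1 and -1.81 for Cpb1 (limma adjusted p = 0.00164 and 0.00125), but 10706 genes, 93.3% of all tested, were then called as well. Without TP replicate 2 it was 0.20 for Cpa1 and -0.18 for Cpb1 (limma adjusted p = 1.0 for both). The TP+hucMSC-Exs against TP changes were 1.06 for Cpa1 and 1.30 for Cpb1 without TP replicate 1 (limma adjusted p = 0.0117 and 0.00784), with 9537 genes called. They were -0.73 for Cpa1 and -0.33 for Cpb1 without TP replicate 2 (limma adjusted p = 0.0789 and 0.274). Both treated libraries were below both Control libraries for Cpa1 and for Cpb1, as they were for 1.63% of all genes tested, while 86.9% were higher with no overlap. In TP+hucMSC-Exs against TP, where 5.09% of genes were higher and 1.62% lower with no overlap, the libraries of Cpa1 and of Cpb1 overlapped.

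Cpa4 (ENSRNOG00000010463) was a minor transcript of the gland far below Cpa1 in level. It stood at 11.99 and 10.93 TPM in TP+hucMSC-Exs pancreases, at 1.98 and 0.79 TPM in TP pancreases and at 12.96 and 12.74 TPM in Control pancreases. Both TP libraries were below the other 4, as they were for 0.653% of all genes tested, and TP replicate 1, which was the highest of all for Cpa1, was low for Cpa4. Group means were 11.5 ± 0.750 TPM in TP+hucMSC-Exs pancreases, 1.39 ± 0.841 TPM in TP pancreases and 12.9 ± 0.156 TPM in Control pancreases (SD, n = 2 each). Both treated libraries were below both Control libraries, by less than either group's distance to the TP values. On the log2(TPM + 0.5) scale, which understates differences of low genes, the TP group differed from Control by -2.90 and the TP+hucMSC-Exs group from TP by 2.74.

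Cep41, the gene beyond Cpa1, was at most 3.82 TPM and Agtr1b, beside Cpb1, at most 1.83 TPM. Cpa5, between Cpa4 and Cpa1, was at most 0.32 TPM in any library. RefSeq also lists 2 long non-coding RNA genes whose spans overlap that of Cpa4. Whether the deposited values were counted by strand is not given in the sources used here, so reads from those genes and from Cpa4 cannot be told apart. Cpa4 and 1 unnamed gene, MSTRG.247, were the only ones of the 11477 tested genes (0.0174%) with both TP libraries more than 4-fold below each of the other 4, a limit set after the values were seen. Cpa4 was itself chosen for its low TP values, so its place there follows from that choice and is a description only. With TP replicate 1 or TP replicate 2 left out, 49 and 78 genes met that limit.

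Ratios between the members do not depend on how each library was scaled, and the TP libraries lay closer together in them than in TPM. Cpb1 stood at 1.29 and 1.39 times Cpa1 in TP+hucMSC-Exs pancreases, at 1.01 and 1.13 times in TP pancreases and at 1.23 and 1.40 times in Control pancreases. The TP ratios were thus below the other 4, although Cpa1 itself differed more than 3-fold between the TP libraries. The mean log2 ratio was 0.42 ± 0.075 in TP+hucMSC-Exs pancreases, 0.099 ± 0.117 in TP pancreases and 0.39 ± 0.132 in Control pancreases (SD, n = 2 each).

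Cpa4 per 1000 TPM of Cpa1 was 0.639 and 0.667 in TP+hucMSC-Exs pancreases, 0.0680 and 0.0940 in TP pancreases and 0.497 and 0.515 in Control pancreases. Both treated libraries were above both Control libraries in this ratio, whereas in TPM they were below them. Per 1000 TPM of Cpb1, Cpa4 stood at 0.495 and 0.481 in TP+hucMSC-Exs pancreases, 0.0673 and 0.0829 in TP pancreases and 0.404 and 0.368 in Control pancreases, the same order of groups. With 0.5 TPM added to both genes, the log2 ratio differed by -2.20 between TP and Control, by 2.57 between TP+hucMSC-Exs and TP, and by 0.37 between TP+hucMSC-Exs and Control. For the ratios of Cpb1 to Cpa1 the same differences were -0.29, 0.32 and 0.027. With 2 libraries against 2, a two-sided exact permutation test cannot go below p = 0.333, which is above 0.05, and the ratios are given as a description.

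**Figure D2:**
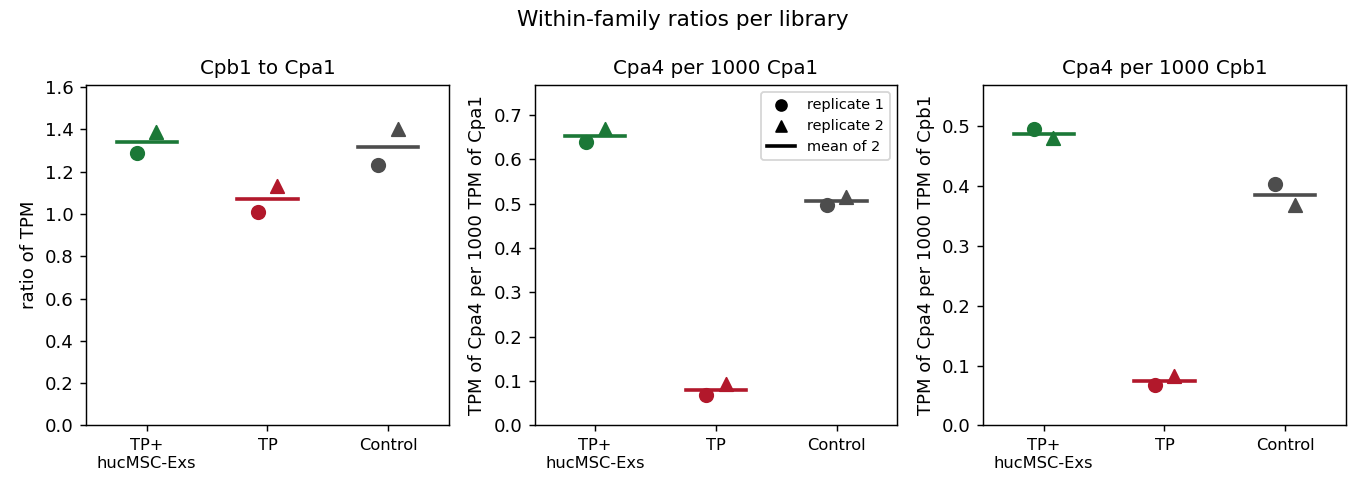
Ratio of Cpb1 to Cpa1, and TPM of Cpa4 per 1000 TPM of Cpa1 and of Cpb1 (y axes, each from 0) in the 6 libraries by group (x axis). Circles are replicate 1, triangles replicate 2 and lines the mean of 2. In all 3 panels both TP libraries lie below the other 4, at 1.01 and 1.13, at 0.0680 and 0.0940, and at 0.0673 and 0.0829.

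A lower ratio to Cpa1 in TP pancreases was also found for other secretory genes of acinar cells. Of 31 such genes, Cpb1 included, 14 had both TP ratios to Cpa1 below the other 4 libraries. In 13 the TP libraries overlapped at least one of the other groups, and in the remaining 4 they lay between TP+hucMSC-Exs and Control with no overlap. Over all genes tested, 0.505% had TP ratios to Cpa1 below both Control libraries, and 0.340% below the other 4 libraries. Those shares are over all genes and not over acinar genes. The 31 ratios share Cpa1 as their denominator, so the 14 are not separate observations. Cpa1 itself took a larger part of the acinar secretory transcripts in both TP libraries than in the other 4, as given below. Prss1, a trypsinogen with the highest mean TPM of all genes, had log2 ratios to Cpa1 of 3.03 and 3.09 in TP+hucMSC-Exs pancreases, 2.47 and 2.40 in TP pancreases and 3.00 and 3.04 in Control pancreases. The lipase Pnlip was among the 4 in which TP lay in between, with -0.86 and -1.19 in TP+hucMSC-Exs pancreases, -0.75 and -0.72 in TP pancreases and -0.30 and -0.15 in Control pancreases. Ctrb1, chymotrypsinogen B, and the phospholipase Pla2g1b were among the 14. The count was 18 without TP replicate 1 and 15 without TP replicate 2.

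**Figure D3:**
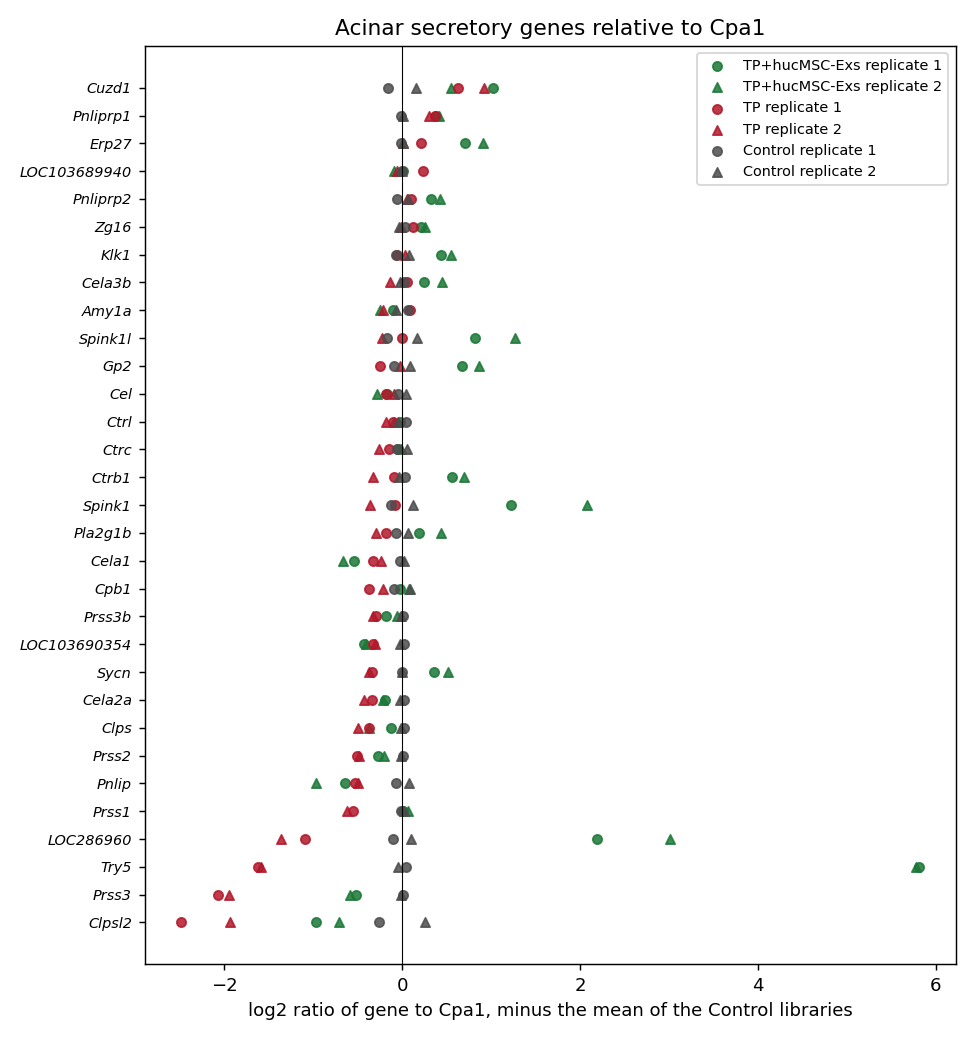
Log2 ratio of 31 acinar secretory genes to Cpa1, minus the mean of the Control libraries (x axis), with genes in rows ordered by the TP mean. Each symbol is a library: green for TP+hucMSC-Exs, red for TP and grey for Control, circles for replicate 1 and triangles for replicate 2. Of the 31 genes, 14 have both red symbols left of all others, Cpb1 among them.

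The members were also set against the acinar secretory transcripts of their own library, the sum of the listed enzymes and secretory proteins with Cpa1 and Cpb1. Cpa1 took 2.74% and 2.61% of that sum in TP+hucMSC-Exs pancreases, 3.57% and 3.84% in TP pancreases and 2.98% and 2.96% in Control pancreases. By this measure Cpa1 was higher in both TP libraries than in the other 4. Cpb1 took 3.54% and 3.62% in TP+hucMSC-Exs pancreases, 3.61% and 4.35% in TP pancreases and 3.67% and 4.14% in Control pancreases, with TP and Control overlapping. Cpa4 stood at 17.5 and 17.4 TPM per 1000000 TPM of that sum in TP+hucMSC-Exs pancreases, 2.43 and 3.61 in TP pancreases and 14.8 and 15.2 in Control pancreases. A further list held trypsinogens, chymotrypsinogens, elastases and Klk1, but not the trypsin-like genes LOC312273 and LOC683849 named below. The listed pancreatic endopeptidase zymogens, whose products the carboxypeptidases trim, gave another scale. Cpa1 and Cpb1 together equalled 9.42% and 9.18% of their TPM in TP+hucMSC-Exs pancreases, 11.8% and 13.7% in TP pancreases and 10.3% and 11.2% in Control pancreases.

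**Figure D4:**
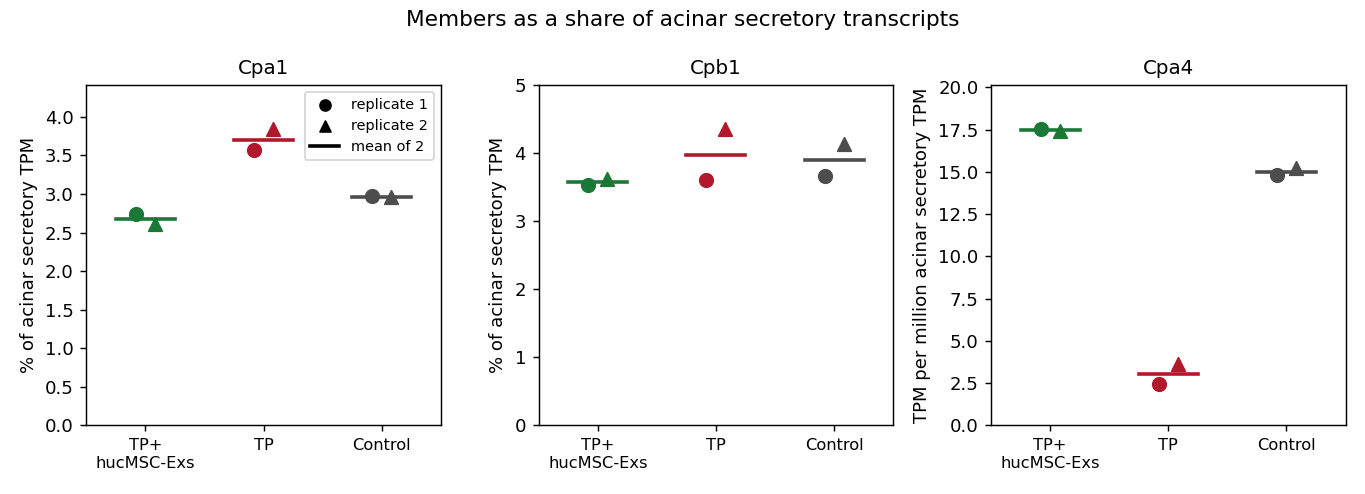
Cpa1 and Cpb1 as a percentage, and Cpa4 per 1000000, of the acinar secretory TPM of the same library (y axes, each from 0), by group (x axis). Circles are replicate 1, triangles replicate 2 and lines the mean of 2. Cpa1 lies at 3.57% and 3.84% in TP pancreases, above the other 4 libraries, and Cpa4 at 2.43 and 3.61 per 1000000, below them.

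Genes with the most similar profile were ranked by the root-mean-square difference of log2(TPM + 0.5) over the 6 libraries, each gene centred on its own mean. The 5 nearest to Cpa1 were Ctrl, a chymotrypsin-like protease (0.0699), Ctrc, chymotrypsin C (0.101), LOC103689940, described as a pancreatic alpha-amylase (0.103), Cel, the bile-salt-dependent lipase (0.106), and Zg16, a zymogen granule protein (0.111). Those nearest to Cpb1 were Tmed6, a p24 trafficking protein (0.0734), Tmem184a, a transmembrane protein (0.0758), Ctrc (0.104), Prss3b, of the trypsin family (0.107), and Aqp12a, an aquaporin (0.116). Cpb1 was in place 14 from Cpa1 at 0.165, and Cpa4 in place 850 at 1.16. These distances share the libraries and their composition and were given no test.

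The nearest profiles to Cpa4 were less close. They were LOC312273, described as trypsin V-A (0.506), the trypsinogen gene Prss3 (0.535), the colipase-like gene Clpsl2 (0.595), LOC683849, described as similar to an anionic trypsin precursor (0.596), and MSTRG.247, which has no name (0.603). LOC312273 stood at 4963 and 5244 TPM in TP+hucMSC-Exs pancreases, at 2292 and 647 TPM in TP pancreases and at 4275 and 4554 TPM in Control pancreases. Prss3 stood at 13544 and 11259.93 TPM in TP+hucMSC-Exs pancreases, at 7186 and 2254 TPM in TP pancreases and at 27099 and 25354 TPM in Control pancreases. In each of the 5 both TP libraries were the lowest, which follows from their choice by closeness to Cpa4 in these same libraries. These distances were given no test either. Reads of trypsin genes can be split between similar copies, so the levels of these single genes are uncertain.

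**Figure D5:**
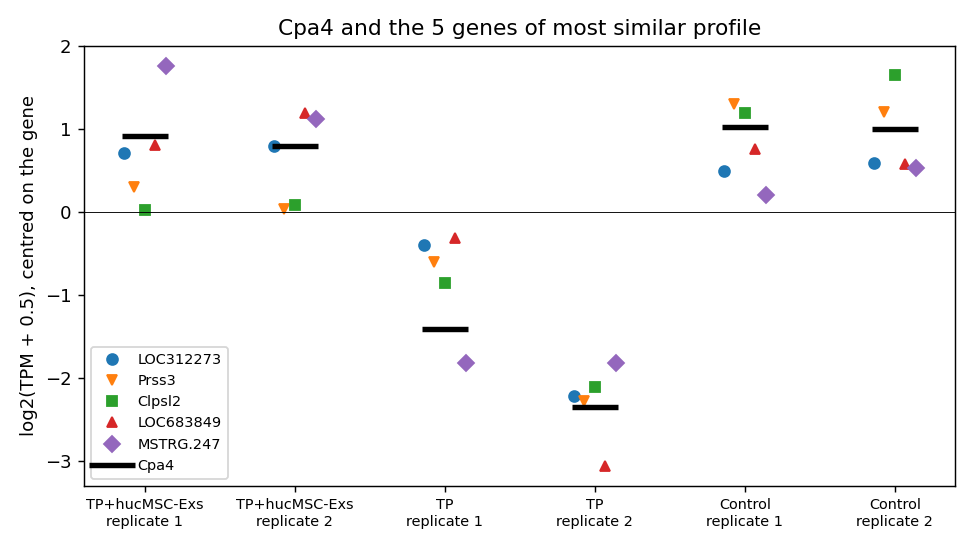
Log2(TPM + 0.5) of Cpa4 (black bars) and of the 5 genes with the most similar profile (coloured symbols), each centred on its own mean (y axis), in the 6 libraries (x axis). Cpa4 and all 5 genes lie below 0 in both TP libraries and above 0 in the other 4. The 5 genes were picked for their closeness to Cpa4 in these same libraries.

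The other carboxypeptidases of the digestive and blood group that were described stood at low levels in most libraries. Cpa3, stored in mast cell granules, stood at 0.15 and 0.42 TPM in TP+hucMSC-Exs pancreases, at 0.08 and 28.0 TPM in TP pancreases and at 0.28 and 0.33 TPM in Control pancreases. The 10 mast cell markers measured, Cpa3 among them, summed to 242 TPM in TP replicate 2 and to at most 5.99 TPM elsewhere, where up to 4 were at 0. Cpb2, the basic carboxypeptidase of blood plasma that slows the breakdown of clots, stood at 2.35 and 1.75 TPM in TP+hucMSC-Exs pancreases, at 1.06 and 0.19 TPM in TP pancreases and at 0.88 and 1.39 TPM in Control pancreases. Cpa6 was listed at 0 in all 6 libraries. Of these, 2 genes besides the members were tested, and 0 passed in any comparison with limma, with 0 at an unadjusted p below 0.05. Of all genes tested, 4.05% had such an unadjusted p in TP against Control, 1.32% in TP+hucMSC-Exs against TP and 2.95% in TP+hucMSC-Exs against Control, and the counts of the lists that follow are to be read beside these shares.

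The tested carboxypeptidases with other tasks were highest in TP replicate 2, the library with fat, macrophage and fibroblast transcripts, except for Cpn1, and the part of those cells in these values was not tested. Of 6 tested regulatory carboxypeptidases, 0 passed in any comparison with limma, and at an unadjusted p below 0.05 there were 2 in TP against Control. Aebp1, an extracellular matrix protein of connective tissue, stood at 6.20 and 6.53 TPM in TP+hucMSC-Exs pancreases, at 2.30 and 119.6 TPM in TP pancreases and at 0.79 and 2.87 TPM in Control pancreases. Cpxm1, a family member without known enzyme activity, stood at 2.80 and 3.00 TPM in TP+hucMSC-Exs pancreases, at 0.91 and 42.97 TPM in TP pancreases and at 0.46 and 0.68 TPM in Control pancreases. Cpn1, the catalytic subunit of plasma carboxypeptidase N, stood lowest in TP replicate 2, with 13.1 and 12.0 TPM in TP+hucMSC-Exs pancreases, 8.78 and 2.48 TPM in TP pancreases and 6.85 and 7.79 TPM in Control pancreases. Of 4 tested lysosomal and serine carboxypeptidases and 2 cytosolic ones, 0 passed with limma; at an unadjusted p below 0.05 stood 1 lysosomal gene in TP against Control. Ctsa, the lysosomal carboxypeptidase also called protective protein, stood at 38.6 and 53.1 TPM in TP+hucMSC-Exs pancreases, at 12.0 and 294 TPM in TP pancreases and at 5.62 and 10.8 TPM in Control pancreases. Scpep1, a serine carboxypeptidase, stood at 16.9 and 23.6 TPM in TP+hucMSC-Exs pancreases, at 5.04 and 159 TPM in TP pancreases and at 3.47 and 5.89 TPM in Control pancreases. Of the cytosolic enzymes, which shorten tubulin tails, Agbl1 ranged from 0.28 to 16.79 TPM and Agtpbp1 from 0.66 to 5.37 TPM over the 6 libraries, both highest in TP replicate 2.

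Latexin (Lxn), an intracellular inhibitor of A-type carboxypeptidases that also binds human CPA4, stood at 16.3 and 21.8 TPM in TP+hucMSC-Exs pancreases, at 1.73 and 30.9 TPM in TP pancreases and at 0.97 and 3.53 TPM in Control pancreases. The related gene Rarres1 stood at 6.99 and 7.35 TPM in TP+hucMSC-Exs pancreases, at 6.15 and 37.7 TPM in TP pancreases and at 3.38 and 6.53 TPM in Control pancreases. With limma 0 of these 2 passed in any comparison. Lxn had a log2 fold change of 2.99 ± 1.43 in TP+hucMSC-Exs against Control (SE; limma adjusted p = 0.800), the only one of the pair with an unadjusted p below 0.05.

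Among the enzymes that work beside the carboxypeptidases, 13 endopeptidase zymogens were tested. Against TP, 2 were higher in TP+hucMSC-Exs pancreases, the trypsin-family gene Try5 (log2 fold change 7.56 ± 1.19, SE; limma adjusted p = 2.69e-06) and the preprotrypsinogen gene LOC286960 (log2 fold change 3.99 ± 0.91, SE; limma adjusted p = 0.0179). Against Control, 1 was higher in TP+hucMSC-Exs pancreases, Try5 (log2 fold change 5.26 ± 1.19, SE; limma adjusted p = 0.0134). In TP against Control 0 passed with limma, and 4 of the 13 were under an unadjusted p of 0.05, beside 4.05% of all genes. With the replicate number as a block 1 passed, Prss3 (log2 fold change -2.70; limma adjusted p = 0.0143 with the block and 0.0671 without it). Try5 stood at 3547 and 3040.1 TPM in TP+hucMSC-Exs pancreases, at 31.5 and 8.92 TPM in TP pancreases and at 90.1 and 80.7 TPM in Control pancreases, with no overlap between groups. Leaving out a treated or a Control library changed these log2 fold changes little and widened their error. A left-out TP library moved those against TP more. Over all left-out libraries, Try5 against TP ranged from 6.68 to 8.45 and LOC286960 against TP from 2.955 to 5.025. Without TP+hucMSC-Exs replicate 1 or 2, Try5 was at 7.45 and 7.68 against TP and at 5.15 and 5.37 against Control, and LOC286960 was at 4.30 and 3.68 against TP. The calls were lost there. With TP+hucMSC-Exs replicate 1 or 2 left out, the limma adjusted p against TP was 0.772 and 0.839 for Try5 and 1.0 in both cases for LOC286960, and against Control it was 0.924 and 0.970 for Try5. With Control replicate 1 or 2 left out, LOC286960 against TP had a limma adjusted p of 1.0 in both cases, and Try5 against Control had 1.0 and 0.869, while Try5 against TP was still called at 0.0217 and 0.00938. The list had a median log2 change of -1.01, 0.55 and -0.57 in TP against Control, TP+hucMSC-Exs against TP and TP+hucMSC-Exs against Control, beside 1.495, -0.38 and 1.09 for all genes tested. Of 17 other acinar secretory genes, 0 passed in any comparison with limma, with 2, 1 and 1 at an unadjusted p below 0.05, and the list medians were -0.83, 0.35 and -0.22.

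Genes that control these zymogens were described from 2 further lists. Enteropeptidase (Tmprss15), the gut enzyme that activates trypsinogen, was listed at 0 in all libraries. Of 6 tested genes of zymogen activation and trypsin control, 0 passed with limma, with 2, 1 and 2 at an unadjusted p below 0.05 in TP against Control, TP+hucMSC-Exs against TP and TP+hucMSC-Exs against Control. Spink1, the secretory trypsin inhibitor, stood at 1184 and 1861 TPM in TP+hucMSC-Exs pancreases, at 741 and 176 TPM in TP pancreases and at 643 and 725 TPM in Control pancreases. Spink1l, a related gene, stood at 2146 and 2542 TPM in TP+hucMSC-Exs pancreases, at 1871 and 465 TPM in TP pancreases and at 1499 and 1792 TPM in Control pancreases. Of 10 tested acinar transcription factors, 0 passed in any comparison with limma, and at an unadjusted p below 0.05 there were 0. Xbp1, a regulator of secretory capacity, stood at 309 and 399 TPM in TP+hucMSC-Exs pancreases, at 134 and 185 TPM in TP pancreases and at 141 and 159 TPM in Control pancreases. Bhlha15, which maintains the mature acinar cell, stood at 37.1 and 28.9 TPM in TP+hucMSC-Exs pancreases, at 36.7 and 12.3 TPM in TP pancreases and at 29.8 and 34.7 TPM in Control pancreases. Ptf1a, the factor whose E-box letters were searched above, stood at 32.6 and 34.5 TPM in TP+hucMSC-Exs pancreases, at 23.1 and 9.51 TPM in TP pancreases and at 13.4 and 16.3 TPM in Control pancreases.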

How the data were processed

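Pancreas RNA of 6 rats was read from the authors' deposited table of TPM per gene, with 1 column per library. Per the labels' protocols, RNA was purified on columns and SMARTER mRNA libraries were built. The aligner, the quantifier and strandedness were not given in the sources used here. GRCm38 and mm10, both mouse builds, appear in the submitters' processing notes, but the table itself has rat Ensembl identifiers for 32883 genes and MSTRG identifiers for 1118. Each column sums to 1000000 TPM, so the values hold no depth. The authors' deposited group means and the deposited gene length entered no test. Columns were assigned to samples by name and replicate number, and groups came from the titles. The names of the TP columns also carry a number that the sources used here do not explain.

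Genes with a mean of at least 1 TPM were tested on log2(TPM + 0.5), fitted with limma 3.58.1 in R 4.3.3 as 1 model over the 3 groups with a variance trend. Adjustment was by Benjamini-Hochberg and calls were made at 0.05. With 3 residual and infinite prior degrees of freedom, genes of similar level shared 1 variance, to which the unlike TP libraries add. The design text speaks of 6 rats in 3 groups. Alternatives were a pseudocount of 0.1 or 1, no filter or a mean of at least 5 TPM, TPM rescaled without acinar secretory genes, median-of-ratios scaling, the replicate number as a block, and each library left out. The members, the 9 gene lists and the 12 marker lists were chosen with earlier results of these data known. Named are the members, called genes of the lists, the other digestive and blood carboxypeptidases, the 2 most abundant genes per list, the 5 nearest profiles per member, and genomic neighbours. Cpxm1, Pnlip and Ptf1a were chosen after their values were seen. Promoters of all 3 members were taken from RefSeq tables of build GRCr8, and gene order from the same assembly. One gene of the series is not reported here and is left out of the lists and profile ranks.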

Additional observations from a re-analysis of the deposited data

How the results depend on the processing

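Scaling cannot move a ratio, and leaving out 1 of 2 libraries cannot move a mean beyond their spread, so no stability is read from the ratios. With a pseudocount of 0.1 or 1 the log2 ratio of Cpa4 to Cpa1 in TP against Control differed by -2.55 and -1.88. The difference of the ratio of Cpb1 to Cpa1 ranged over left-out libraries from -0.39 to -0.20 in TP against Control, 0.24 to 0.40 in TP+hucMSC-Exs against TP and -0.066 to 0.12 in TP+hucMSC-Exs against Control. That of Cpa4 to Cpa1 ranged from -2.63 to -1.78, 2.15 to 3.00 and 0.34 to 0.41. The Cpa4 log2 difference stayed negative in TP against Control (-3.37 to -2.43 over left-out libraries). It was -4.59 with TPM rescaled without acinar secretory genes and -3.96 with median-of-ratios scaling, and in TP+hucMSC-Exs against Control it was -1.56 under both. Over left-out libraries the Cpa1 change ranged from -1.60 to 0.20, -0.73 to 1.06 and -0.63 to -0.44 in the same 3 comparisons, and the Cpb1 change from -1.81 to -0.18, -0.33 to 1.30 and -0.56 to -0.45. The genes called ranged from 0 to 10706, 0 to 9537 and 1 to 6031. Counts of genes called without the filter were 0 in each comparison. In TP against Control they were 6 as reported, 14 with a pseudocount of 0.1, 1 after rescaling, 0 with median-of-ratios scaling and 10 with the replicate block. In TP+hucMSC-Exs against TP they were 8, then 0 after rescaling, 2 with median-of-ratios scaling and 22 with the replicate block. In TP+hucMSC-Exs against Control they were 24, then 12 with a pseudocount of 1, 2 after rescaling and 2 with median-of-ratios scaling. Same-numbered libraries deviated together with correlations of 0.135, 0.0804 and 0.279 between groups. Not all were above 0.1 and the labels name no shared source, so the numbers were not used as pairs. The replicate block, with no pairing in the labels, left the Cpa1 change in TP against Control at -0.70 (adjusted p = 0.517) and changed no call of Cpa1 or Cpb1. Of the listed genes it changed the call of Prss3 in TP against Control. Left-out TP libraries leave 1 library in that group, assumed to vary like the others. Try5 and LOC286960 lost their calls in TP+hucMSC-Exs without the filter and under both scalings (adjusted p from 0.342 to 1.0), with log2 fold changes against TP of 7.56 to 7.72 for Try5 and 3.99 to 4.27 for LOC286960, and against Control of 3.81 to 5.26 for Try5. Without TP replicate 1, in TP against Control, 93.3% of all genes were called, among them 2 of 2 tested digestive and blood, 6 of 6 regulatory and 4 of 4 lysosomal and 1 of 2 cytosolic carboxypeptidases, 2 of 2 inhibitors, 13 of 13 endopeptidase zymogens, 16 of 17 other acinar genes, 6 of 6 activation genes and 5 of 10 transcription factors. The cause of these moves was not tested. Depth is unknown, so the precision of the lowest Cpa4 values could not be set.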
